A study of Mus musculus with 9 samples.

Results

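The MiT/TFE and FOXO transcription factors switch on genes of autophagy and of the lysosome, and 7 of their genes were followed across 3 mouse myeloid cell lines. The members were the rows of the deposited gene table whose symbol is *Tfeb*, *Tfe3*, *Mitf*, *Tfec*, *Foxo1*, *Foxo3* or *Foxo4*, which makes 7 of 54347 genes. Each symbol matched 1 row, and all 7 passed the filter on low counts that left 13082 genes to test. *Foxo6*, the remaining FOXO gene, had 0 to 4 counts per library and was not tested.

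The Hox-WT line and the Hox-URE line were derived from lineage-negative c-Kit+ bone marrow cells with a Hoxb8 protein fused to the hormone-binding part of the estrogen receptor, which keeps cells immature while estradiol is present, so both are progenitor lines. A wild-type mouse gave Hox-WT, and Hox-URE was made from an animal lacking, on both alleles, the URE, the enhancer upstream of the *Spi1* gene. *Spi1* encodes PU.1, an ETS-family factor that myeloid cells depend on. URE-AML was grown from the leukemic blasts of a mouse with the same deletion, and the labels give it as B22. All mice were on a C57BL/6 background. The 3 lines were kept in IMDM with 20% fetal calf serum, with β-estradiol and with IL-3, IL-6 and SCF at 10 ng/ml each, so the hormone and the cytokines were common to the groups. Poly-A RNA was sequenced in 3 libraries per line. Each genotype and each stage is 1 line, so a difference between lines cannot be told apart from one between genotypes or between cells before and after leukemia. The Hoxb8 fusion was described for the Hox lines only, so its part in what sets URE-AML off from both cannot be told apart either. As nothing gives the libraries of a line as separate cultures, p-values measure only the spread between libraries, which may be technical.

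TFEB, TFE3, MITF and TFEC are basic helix-loop-helix leucine zipper proteins that bind one another and recognize E-box sequences, among them the CLEAR element of lysosomal gene promoters. When amino acids are plentiful, Rag GTPases bring TFEB, TFE3 and MITF to the lysosome, mTORC1 phosphorylates them, and 14-3-3 proteins hold them in the cytosol. Calcineurin reverses this in starved cells. FOXO1, FOXO3 and FOXO4 are forkhead factors that AKT and SGK kinases, downstream of PI3K and growth factors, send out of the nucleus by the same kind of 14-3-3 binding. Both families are thus controlled largely at the protein level, which messenger RNA levels do not show. In blood-forming tissue, FOXO proteins are known for preserving stem cells, MITF for mast cells, and MITF and TFEC for osteoclasts and macrophages.

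Levels are given in CPM, the counts of a gene scaled to a common library total with edgeR's TMM factors. The total counts were 20331064 to 28588718 per library, and 3 counts, taken as the floor, made 0.104 to 0.153 CPM, which covers counting error only. *Spi1* stood at 103 ± 6.79 CPM in Hox-WT (SD, n = 3), with 1, 1 and 0 counts in the Hox-URE libraries and 4.79 ± 2.02 CPM in URE-AML (SD, n = 3), so from high to low its order was Hox-WT, URE-AML, Hox-URE. *Hoxb8* was at 0 counts in URE-AML. Of 9 progenitor markers, *Hoxa9* was at or under 3 counts in all 3 lines, *Ptprc* in both URE lines, and *Cd34*, *Flt3* and *Meis1* in URE-AML, while *Kit* was present in every library. The summed CPM of 10 neutrophil markers was 5613 to 9043 for Hox-WT, 2618 to 4003 for Hox-URE, where *Ngp*, *Ltf*, *Camp* and *S100a9* were at or under 3 counts, and 11271 to 25958 in URE-AML. *Ctsg* made up most of the Hox-URE sum of CPM, at 3325 CPM and 1993 in Hox-WT, while 9 of the 10 were called lower in Hox-URE relative to Hox-WT, as were 15.9% of all tested genes, with a median log2 fold change of -6.22. *Mpo* stood at 5042 CPM for Hox-WT, 5.04 for Hox-URE and 192 in URE-AML. Library 1 of Hox-URE stood apart from the other 2, with a chi-square per degree of freedom of 67.6 and 99.8 against them and of 26.8 between them. Without it, no member changed its call in any comparison but *Mitf* in Hox-URE relative to Hox-WT, which lost it. In RNA from a bulk of cells, fewer cells of a type and less RNA per cell cannot be told apart.

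Promoters of 6 of the 7 members were found in the RefSeq table for GRCm38.p6, each from 250 bases before to 50 bases after a transcription start, 11 promoters in all. Those of *Tfec*, *Tfeb* and *Foxo1* are shown because the results turn on them: *Tfec* was near 0 in Hox-URE, where *Spi1* was near 0, *Tfeb* was higher in both URE lines, and *Foxo1* was highest where *Spi1* was lowest. Capitals mark GGAAGT, letters that hold the core bound by ETS factors such as PU.1, searched on both strands.
Tfec: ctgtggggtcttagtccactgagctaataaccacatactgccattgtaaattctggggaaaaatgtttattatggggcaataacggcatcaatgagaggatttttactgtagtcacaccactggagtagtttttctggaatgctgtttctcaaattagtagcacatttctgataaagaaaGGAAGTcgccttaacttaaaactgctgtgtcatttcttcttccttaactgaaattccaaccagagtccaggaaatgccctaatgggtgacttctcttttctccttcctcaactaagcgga
Tfeb: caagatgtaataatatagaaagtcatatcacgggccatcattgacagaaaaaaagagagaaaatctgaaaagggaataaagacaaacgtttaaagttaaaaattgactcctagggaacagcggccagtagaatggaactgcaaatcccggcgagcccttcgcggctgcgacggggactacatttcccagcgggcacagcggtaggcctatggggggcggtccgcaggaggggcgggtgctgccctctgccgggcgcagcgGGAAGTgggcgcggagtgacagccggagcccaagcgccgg
Foxo1: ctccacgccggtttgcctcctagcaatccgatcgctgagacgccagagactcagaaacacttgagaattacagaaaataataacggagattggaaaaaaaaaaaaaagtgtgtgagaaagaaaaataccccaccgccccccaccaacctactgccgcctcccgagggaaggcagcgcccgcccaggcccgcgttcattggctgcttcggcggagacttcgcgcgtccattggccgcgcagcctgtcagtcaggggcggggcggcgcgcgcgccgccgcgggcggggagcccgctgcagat

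The *Tfec* promoter lies at chr6:16898392-16898691 on the minus strand, and its GGAAGT begins 70 bases before the start. The *Tfeb* promoter is the first of 3 in the table, at chr17:47736787-47737086 on the plus strand, and its GGAAGT begins at base 11 of the transcript. The *Foxo1* promoter, at chr3:52268087-52268386 on the plus strand, holds none. The first of 2 *Tfe3* promoters in the table has GGAAGT on the minus strand at -15 and 7, on either side of a RUNX core, TGTGGT, at -1. TGTGGT also stands on the minus strand at -221 of the *Tfec* promoter and at -81 of the first *Mitf* promoter, with no overlap between the motifs. The other promoters of the members hold neither, and the longer PU.1 form GAGGAAGT is in none of the 11. GGAAGT occurs in 23.8%, TGTGGT in 16.8% and GAGGAAGT in 3.20% of the 32851 promoters of the table, so each match is only a description of the letters.

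*Tfec* (ENSMUSG00000029553, chromosome 6, 16833373 to 16898441 of GRCm38, minus strand) gave the widest range of the 7 members. It encodes the MiT/TFE member with the most restricted expression. Its counts were 441, 532 and 379 for Hox-WT, 0, 0 and 1 for Hox-URE, and 1408, 1208 and 1294 for URE-AML. The mean levels were 16.2 ± 2.96 CPM for Hox-WT and 56.6 ± 0.991 for URE-AML (SD, n = 3 each). All 3 libraries of each line were apart from those of the others, in the order, from low to high, Hox-URE, Hox-WT, URE-AML. *Tfec* in Hox-URE was at least 106-fold lower, compared with Hox-WT (adjusted p = 3.67e-08 in edgeR), and in URE-AML it was at least 369-fold higher, compared with Hox-URE (adjusted p = 4.47e-09 in edgeR). Between URE-AML and Hox-WT it was 3.49-fold higher in URE-AML, or 1.80 ± 0.16 on the log2 scale (± SE, adjusted p = 6.36e-06 in edgeR). *Spi1* itself was lower in URE-AML, relative to Hox-WT, so the order of *Tfec* over the 3 lines was not that of *Spi1*.

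The markers of cells known to use *Tfec* did not run with it in every line. The summed CPM of 10 macrophage markers was 287 to 298 for Hox-WT, 2.22 to 9.55 for Hox-URE and 3.48 to 10.4 for URE-AML, where *Csf1r*, *Fcgr1*, *Mertk*, *Mrc1*, *C1qa* and *C1qb* were at or under 3 counts. Of these, *Csf1r* and *Fcgr1* were above 3 counts in Hox-WT and the other 4 were not, and *Adgre1* made up most of the Hox-WT sum, at 274 ± 5.20 CPM (SD, n = 3). *Tfec* was thus highest in a line where *Csf1r* and *Fcgr1* were near 0. Of the 10 neutrophil markers, 9 were called lower in Hox-URE (15.9% of all tested genes) and 8 higher in URE-AML (23.0% of all), both relative to Hox-WT, while *Mpo* and *Ctsg* did not have the order of *Tfec*. The part of these cells in its level was not tested. The nearest tested genes on either side of *Tfec* had other orders. *Tes*, 167 kb away, had means of 118 CPM for Hox-WT, 3.07 for Hox-URE and 2.69 for URE-AML, and *Mdfic*, 1031 kb away, had 0.130, 13.99 and 36.0 CPM. The median log2 fold change of the 635 tested genes of chromosome 6 was 0.00 in Hox-URE and -0.01 in URE-AML, both relative to Hox-WT.

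*Tfeb* (ENSMUSG00000023990, chromosome 17, 47737030 to 47792419, plus strand), the regulator best known for lysosome biogenesis, was higher in each URE line. Its level was 5.40, 7.04 and 7.09 CPM in the Hox-WT libraries, 10.9, 14.5 and 11.8 in Hox-URE, and 22.4, 22.7 and 23.7 in URE-AML. The libraries of the 3 lines did not overlap, and the means of 6.51 ± 0.962, 12.4 ± 1.92 and 22.9 ± 0.662 CPM (SD, n = 3 each) rose in the order Hox-WT, Hox-URE, URE-AML. The log2 fold change was 0.93 ± 0.15 in Hox-URE relative to Hox-WT (± SE, adjusted p = 0.000615 in edgeR). URE-AML stood 1.82 ± 0.15 above Hox-WT (log2 ± SE, adjusted p = 4.18e-06 in edgeR) and 0.89 ± 0.15 above Hox-URE (log2 ± SE, adjusted p = 0.000553 in edgeR). The steps from Hox-WT to Hox-URE and from Hox-URE to URE-AML were of like size, and *Tfeb* was called in all 3 comparisons. The median log2 fold change of the 681 tested genes of chromosome 17 lay between -0.03 and -0.01 in these comparisons.

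*Tfe3* (ENSMUSG00000000134, chromosome X, 7762560 to 7775202, plus strand), which overlaps with *Tfeb* in its targets, did not share that order. Its libraries had 30.3, 32.7 and 31.6 CPM for Hox-WT, 28.4, 25.2 and 20.9 for Hox-URE, and 26.6, 19.4 and 17.9 for URE-AML. All 6 libraries of the URE lines were under the 3 of Hox-WT, and the URE lines overlapped with each other. The means were 31.5 ± 1.18, 24.8 ± 3.77 and 21.3 ± 4.64 CPM (SD, n = 3 each). The log2 fold change of -0.34 ± 0.16 in Hox-URE relative to Hox-WT did not pass the test (± SE, adjusted p = 0.0982 in edgeR). That of -0.57 ± 0.16 in URE-AML relative to Hox-WT passed the adjusted p but not the fold of 1.5 (± SE, adjusted p = 0.0123 in edgeR). It passed both without Hox-WT library 1, at -0.60, and without URE-AML library 1, at -0.76. Between URE-AML and Hox-URE the log2 fold change was -0.22 ± 0.16 (± SE, adjusted p = 0.267 in edgeR).

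*Mitf* (ENSMUSG00000035158, chromosome 6, 97807052 to 98021349, plus strand) had under 4 CPM in every library. It had 0.675, 0.643 and 1.14 CPM for Hox-WT, 1.53, 2.16 and 1.23 for Hox-URE, and 3.47, 1.86 and 2.19 for URE-AML. The URE lines were above Hox-WT in every library and overlapped with each other. The log2 fold change was 1.61 ± 0.38 in URE-AML relative to Hox-WT (± SE, adjusted p = 0.00439 in edgeR) and 0.61 ± 0.37 in URE-AML relative to Hox-URE (± SE, adjusted p = 0.179 in edgeR). In Hox-URE relative to Hox-WT it was 0.99 ± 0.38 with an adjusted p of 0.0499 in edgeR, at the edge of the threshold, and the call was lost in 12 of the 19 alternative settings. The means were 0.820 ± 0.279, 1.64 ± 0.474 and 2.51 ± 0.854 CPM (SD, n = 3 each). The summed CPM of 10 mast cell and basophil markers was 497 to 822 for Hox-WT, 1596 to 6127 for Hox-URE and 37.0 to 71.0 for URE-AML, an order that *Mitf* did not follow. Of the 6 melanocyte markers, *Tyr*, *Tyrp1*, *Dct*, *Mlana* and *Sox10* were at or under 3 counts in all lines, as were *Dcstamp*, *Ocstamp*, *Calcr* and *Ctsk* of the 6 osteoclast markers.

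**Figure D1:**
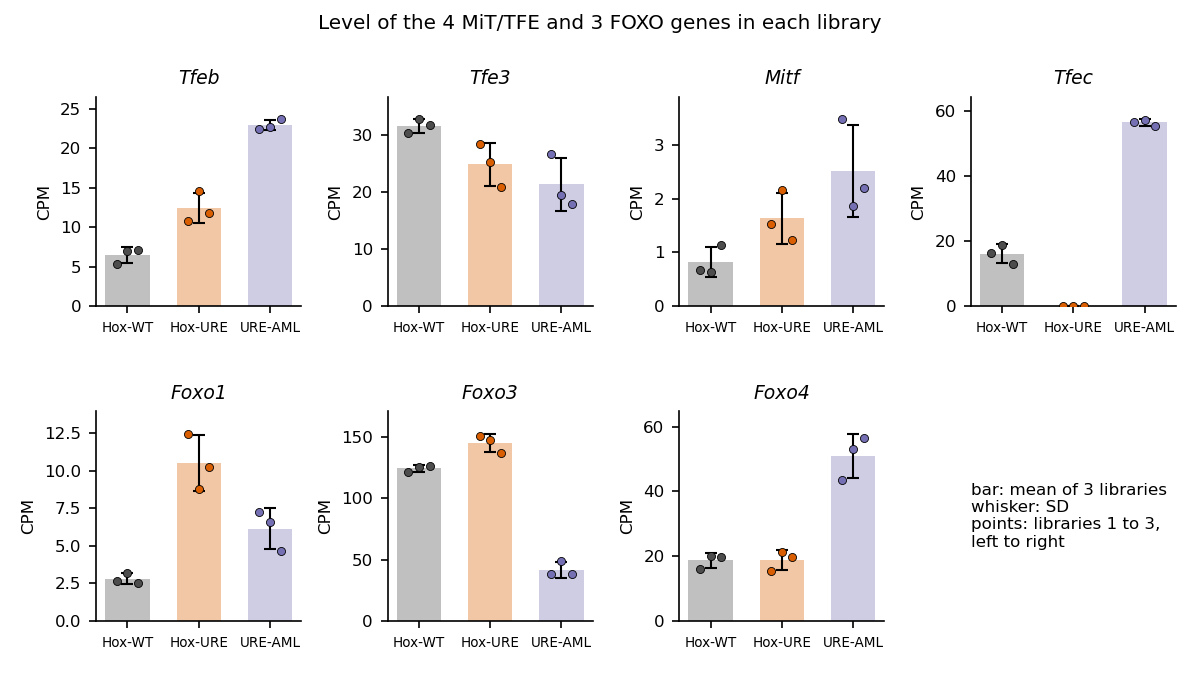
Level in CPM (TMM-scaled, linear axes from 0) of the 7 genes in the 3 libraries of each line. Bars are means, whiskers SD and points single libraries. *Tfec* is at the floor in Hox-URE and at 56.6 CPM in URE-AML, *Tfeb* rises in steps, and *Foxo3* and *Foxo4* change in opposite directions in URE-AML.

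*Foxo3* (ENSMUSG00000048756, chromosome 10, 42181841 to 42276755, minus strand), a FOXO gene tied to stem cell maintenance and to autophagy genes, had a higher level per kilobase of exon than any other member in both Hox lines. Its libraries had 121, 125 and 126 CPM for Hox-WT, 151, 148 and 137 for Hox-URE, and 38.1, 48.9 and 37.9 for URE-AML. The Hox-URE libraries were above those of Hox-WT without overlap, and those of URE-AML were far below both. The means were 124 ± 2.67, 145 ± 7.34 and 41.6 ± 6.28 CPM (SD, n = 3 each). The log2 fold change of 0.23 ± 0.11 in Hox-URE relative to Hox-WT did not pass the test (± SE, adjusted p = 0.0965 in edgeR). In URE-AML *Foxo3* fell by 1.58 ± 0.11 relative to Hox-WT (log2 ± SE, adjusted p = 8.62e-07 in edgeR) and by 1.80 ± 0.11 relative to Hox-URE (log2 ± SE, adjusted p = 3.81e-07 in edgeR). The median log2 fold change of the 634 tested genes of chromosome 10 was -0.02 and 0.11 in these comparisons with URE-AML.

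*Foxo4* (ENSMUSG00000042903, chromosome X, 101254528 to 101260873, plus strand), a smaller FOXO gene with targets in common with *Foxo1* and *Foxo3*, went the other way in URE-AML. It had 16.1, 20.0 and 19.9 CPM for Hox-WT, 15.3, 21.2 and 19.8 for Hox-URE, and 43.4, 53.0 and 56.5 for URE-AML. The Hox lines overlapped, with means of 18.7 ± 2.24 and 18.8 ± 3.05 CPM, and every URE-AML library was above them, with a mean of 51.0 ± 6.81 CPM (SD, n = 3 each). The log2 fold change was 0.01 ± 0.16 in Hox-URE relative to Hox-WT, and its sign depended on the scaling (± SE, adjusted p = 0.992 in edgeR). It was 1.45 ± 0.16 in URE-AML relative to Hox-WT (± SE, adjusted p = 2.42e-05 in edgeR) and 1.44 ± 0.16 relative to Hox-URE (± SE, adjusted p = 2.73e-05 in edgeR). *Xist*, the RNA of the inactive X chromosome, was at 0 counts in Hox-URE and at 24.8 ± 2.16 and 28.9 ± 14.4 CPM (SD, n = 3 each) in Hox-WT and URE-AML. The median log2 fold change of the 392 tested X-linked genes was 0.08 in Hox-URE relative to Hox-WT and 0.00 in URE-AML relative to Hox-WT, while single libraries of URE-AML had *Xist* from 15.4 to 44.1 CPM. *Il2rg*, the nearest tested gene of *Foxo4* at 3.51 kb, had 48.2 CPM for Hox-WT, 155 for Hox-URE and 165 for URE-AML and was called higher already in Hox-URE (adjusted p = 3.68e-05 in edgeR).

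*Foxo1* (ENSMUSG00000044167, chromosome 3, 52268336 to 52353221, plus strand), known for control of metabolism and of lymphocyte genes, was highest in Hox-URE. Its libraries had 2.66, 3.21 and 2.56 CPM for Hox-WT, 12.5, 8.79 and 10.3 for Hox-URE, and 7.23, 6.56 and 4.63 for URE-AML. None of the lines overlapped, in the order, from low to high, Hox-WT, URE-AML, Hox-URE, while *Spi1* had that order from high to low. The means were 2.81 ± 0.352 CPM for Hox-WT, 10.5 ± 1.85 for Hox-URE and 6.14 ± 1.35 for URE-AML (SD, n = 3 each). *Foxo1* rose by 1.90 ± 0.22 in Hox-URE (log2 ± SE, adjusted p = 6.27e-05 in edgeR) and by 1.13 ± 0.22 in URE-AML (log2 ± SE, adjusted p = 0.00147 in edgeR), both relative to Hox-WT. It was lower in URE-AML than in Hox-URE, at -0.77 ± 0.21 on the log2 scale (± SE, adjusted p = 0.0103 in edgeR), which did not pass when the difference was tested against a 1.5-fold change. The antisense gene *Gm20402* overlaps its exons by 674 bases and had 0 counts in all 9 libraries. The summed CPM of 9 B and T lymphoid markers, of which 7 in Hox-URE and 8 in URE-AML were at or under 3 counts, was 71.0 to 99.5 for Hox-WT, 34.5 to 41.2 for Hox-URE and 0.129 to 0.238 for URE-AML, which is not the order of *Foxo1*.

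The members were next counted by comparison, where a call needed more than a 1.5-fold change as well as an adjusted p under 0.05. In Hox-URE relative to Hox-WT, 4 of the 7 were called, where 37.2% of all tested genes were. *Tfeb*, *Mitf* and *Foxo1* were the 3 that were higher and *Tfec* the 1 that was lower, where 21.3% and 15.9% of all tested genes were. In URE-AML relative to Hox-WT, 6 of 7 were called, where 43.2% of all tested genes were, with *Tfeb*, *Mitf*, *Tfec*, *Foxo1* and *Foxo4* higher and *Foxo3* lower, where 23.0% and 20.2% of all tested genes were. In URE-AML relative to Hox-URE, 5 of 7 were called, where 42.7% of all tested genes were, with *Tfeb*, *Tfec* and *Foxo4* higher and *Foxo1* and *Foxo3* lower, where 20.3% and 22.4% of all tested genes were. The libraries of the lines compared did not overlap in 6, 7 and 5 of the 7 members, in that order, against 60.3%, 67.6% and 62.8% of all tested genes. Each line enters 2 of these comparisons, so they are not independent of one another. *Tfeb*, *Foxo1* and *Mitf* were called higher in each URE line than in Hox-WT, *Mitf* in Hox-URE only at the edge of the threshold. *Tfec* was the 1 member called in opposite directions in the URE lines relative to Hox-WT.

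**Figure D2:**
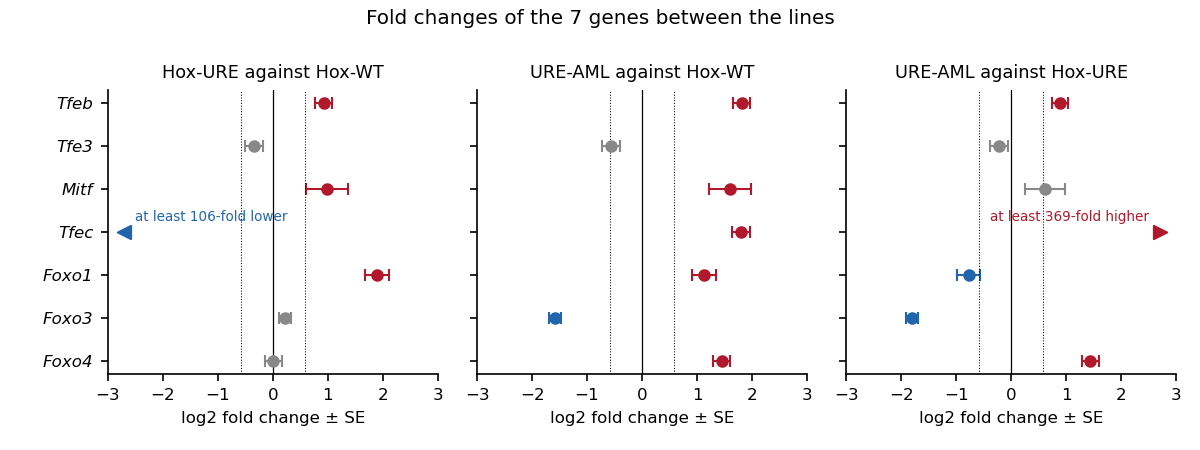
Log2 fold change (horizontal axis) with its standard error for the 7 genes in the 3 comparisons, red where called higher, blue where called lower and grey where not called, with dotted lines at a 1.5-fold change. Arrowheads mark *Tfec* in the comparisons that involve Hox-URE, drawn at the edge because only the bounds of at least 106-fold and at least 369-fold can be given. *Foxo3* and *Foxo4* lie near 0 on the left and move apart in both comparisons with URE-AML.

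Levels of different members were compared after division by the summed length of their exons, in CPM per kilobase. Whether the deposited counts had been scaled by transcript length was not given in the sources used here, so each level, sum and share per kilobase assumes that they still grew with the length of the gene. On this scale the 4 MiT/TFE genes together had 7.58 ± 0.596 CPM per kilobase for Hox-WT, 5.14 ± 0.551 for Hox-URE and 16.9 ± 0.603 for URE-AML (SD, n = 3 each). *Tfec* made up 38.1 ± 4.75% of that sum for Hox-WT, 0.0670 ± 0.116% for Hox-URE and 60.0 ± 1.89% for URE-AML (SD, n = 3 each). *Tfeb* made up 15.2 ± 2.17%, 42.7 ± 5.23% and 24.0 ± 1.48%, and *Tfe3* 45.02 ± 2.40%, 52.2 ± 5.64% and 13.6 ± 2.44%, in the same order of lines (SD, n = 3 each). *Mitf* made up 1.77%, 5.08% and 2.38%. The shares of *Tfeb*, *Tfe3* and *Mitf* in Hox-URE moved by over 1.5 times when the median protein-coding transcript set the length, to 71.6%, 25.9% and 2.42%. With that length *Tfeb* had 32.6% and *Tfe3* 28.4% for Hox-WT, and they had 42.6% and 7.07% for URE-AML. *Tfeb* was then above *Tfe3* in every line, where with summed exons *Tfe3* was the higher in both Hox lines. *Mitf* had 0.802%, 2.56% and 1.06% in the 3 lines with the longest transcript. *Tfec* had the largest share of the 4 in URE-AML, with 60.0%, 65.7% and 49.1% for the summed exons, the longest and the median protein-coding transcript.

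The 3 FOXO genes had 22.1 ± 1.01 CPM per kilobase for Hox-WT, 25.8 ± 0.830 for Hox-URE and 20.8 ± 2.21 for URE-AML (SD, n = 3 each), and the sums of the Hox lines did not overlap. These sums, like those of the MiT/TFE genes, used the summed exon length only. Other lengths moved the shares and were not tried for the sums, so how the sums compare between lines may depend on the length. *Foxo3* made up 74.3 ± 1.88% of the FOXO sum for Hox-WT, 74.4 ± 2.59% for Hox-URE and 26.4 ± 3.02% for URE-AML (SD, n = 3 each). *Foxo4* made up 24.2 ± 1.86%, 20.9 ± 3.31% and 70.1 ± 3.83%, and *Foxo1* 1.47%, 4.72% and 3.46%, which became 0.564%, 1.82% and 1.81% with the median protein-coding transcript. In URE-AML, *Foxo4* thus had a larger share than *Foxo3*, the reverse of the Hox lines, and it did so under each definition of length, with 56.9% against 41.3% when the median protein-coding transcript was used.

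**Figure D3:**
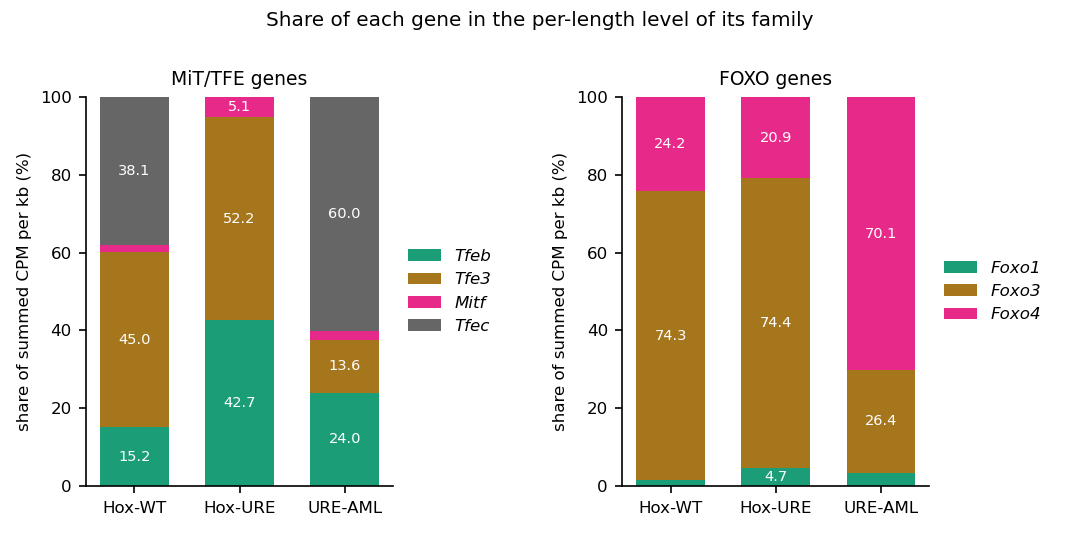
Share of each gene in the summed level of its family, in percent of CPM per kilobase of exon, as means of 3 libraries per line. *Tfec* is the grey block that cannot be seen in Hox-URE and fills 60.0% in URE-AML, and *Foxo4* (pink, right) fills 70.1% in URE-AML.

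Members that resembled each other over the 9 libraries were described by Pearson's r of log2 CPM, with no test, since the points are 3 libraries of each of 3 lines and r follows the order of the lines. *Tfeb* ran with *Mitf* (r = 0.89) and *Foxo4* (r = 0.86), and against *Tfe3* (r = -0.79). *Foxo3* and *Foxo4* ran against each other (r = -0.95). *Foxo1* ran against *Spi1* (r = -0.96) and *Tfec* ran with it (r = 0.79), as *Tfec* and *Spi1* were both lowest in Hox-URE. With Spearman's correlation in place of r, 0 of the 3 genes most like *Tfeb*, *Tfec*, *Foxo1*, *Foxo3* and *Foxo4* recurred, 1 of those most like *Tfe3* and 2 of those most like *Mitf*, so the names given here depend on the measure. The genes most like *Tfec* by r were *Sirpa*, an inhibitory receptor of myeloid cells, *Mtus1* and *Arhgap5*, with r of 0.999, 0.998 and 0.998 and means at or under 0.0722 CPM in Hox-URE. Those most like *Tfeb* were *Foxj2* (r = 0.993), *Tnfaip2* (r = 0.991) and *Dhrs3* (r = 0.988), and those most like *Foxo4* were *Ppard* (r = 0.996), *Fkbp5* (r = 0.994) and *Neil3* (r = 0.994). *Foxo3* was most like *Tspyl3* (r = 0.999) and *Csgalnact1* (r = 0.996), both under 1 CPM in URE-AML, and *Gm46620* (r = 0.999), a non-coding RNA gene. *Foxo1* was most like *Tmem181c-ps*, *Rnf11* and *Tarbp1* (r = 0.988, 0.987 and 0.987). *Tfe3* was most like *Sgpl1* (r = 0.98), *Rnf149* (r = 0.96) and *Secisbp2* (r = 0.95), and *Mitf* most like *Thbs4* (r = 0.97), *Arhgef1* (r = 0.95) and *Mdfi* (r = 0.94).

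The enzymes and adaptors that keep the 7 proteins in the cytosol were examined from lists of known pathway genes. Of 40 tested genes of mTORC1, the Rag GTPases and calcineurin, Hox-URE had 5 called higher and 3 lower, and URE-AML 6 and 4, both relative to Hox-WT, while URE-AML had 3 higher and 7 lower relative to Hox-URE. The shares called higher and lower were 12.5% and 7.5% in Hox-URE, where 21.3% and 15.9% of all tested genes were, 15% and 10% in URE-AML relative to Hox-WT (23.0% and 20.2% of all), and 7.5% and 17.5% in URE-AML relative to Hox-URE (20.3% and 22.4% of all). Without Hox-WT library 3 the Hox-URE counts became 3 higher and 5 lower. The median log2 fold changes were 0.01, -0.18 and -0.04. *Mtor* stood at -0.45 (log2) in Hox-URE and -0.43 in URE-AML relative to Hox-WT, short of a 1.5-fold change. *Fnip2*, which encodes a partner of folliculin, was called lower in URE-AML relative to Hox-WT and, by 0.95 on the log2 scale, relative to Hox-URE (adjusted p = 9.16e-05 and 0.00186 in edgeR). *Flcn*, *Fnip1* and *Tsc1*, all brakes or switches of this pathway, had log2 fold changes between -0.26 and 0.08. *Deptor*, an inhibitor of mTOR, was at 22.8 ± 1.40 CPM for Hox-WT and fell in Hox-URE, to 3.23 ± 1.16, and in URE-AML, to 0.982 ± 0.226 (SD, n = 3 each). Of the calcineurin subunits that let MiT/TFE proteins into the nucleus, *Ppp3ca* rose by 0.63 ± 0.10 in Hox-URE and 0.90 ± 0.10 in URE-AML relative to Hox-WT (log2 ± SE, adjusted p = 0.000394 and 2.53e-05 in edgeR). *Ppp3cc* in Hox-URE was at least 38.7-fold lower, compared with Hox-WT (adjusted p = 9.92e-07 in edgeR) and, at 5.22 ± 0.751 CPM in URE-AML, not called there relative to Hox-WT (SD, n = 3). *Mcoln1*, the lysosomal calcium channel upstream of calcineurin, rose by 0.70 ± 0.13 in URE-AML relative to Hox-WT (log2 ± SE, adjusted p = 0.000994 in edgeR). *Castor1*, an arginine sensor of mTORC1, rose in Hox-URE (1.25 on the log2 scale, adjusted p = 0.0198 in edgeR) and fell in URE-AML (-1.39, adjusted p = 0.0189 in edgeR), both relative to Hox-WT. It had 29, 29 and 21 counts for Hox-WT, 54, 49 and 55 for Hox-URE, and 10, 3 and 12 for URE-AML. *Map4k3*, a kinase of the amino acid response, had 57, 38 and 34 counts in the URE-AML libraries and at most 2 in any other, which is at least 16.5-fold higher than Hox-WT (adjusted p = 3.39e-05 in edgeR). *Rragd*, itself an MiT/TFE target, did not pass the filter. *Prkcb*, a kinase reported to act on TFEB, had 6.97 CPM in Hox-WT and rose by 4.47 ± 0.24 in Hox-URE and by 3.25 ± 0.23 in URE-AML (log2 ± SE, adjusted p = 2.71e-07 and 9.98e-07 in edgeR).

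Of 40 tested genes of PI3K-AKT control of FOXO, Hox-URE had 10 called higher and 7 lower, and URE-AML 7 and 9, both relative to Hox-WT, while URE-AML had 8 higher and 8 lower relative to Hox-URE. The shares called higher and lower were 25% and 17.5%, 17.5% and 22.5%, and 20% and 20%, close to the 21.3% and 15.9%, 23.0% and 20.2%, and 20.3% and 22.4% of all tested genes. The medians were -0.00, -0.01 and -0.04. *Inpp5d*, which encodes the phosphatase SHIP1, rose by 0.69 ± 0.09 in Hox-URE (log2 ± SE, adjusted p = 0.000169 in edgeR) and had 0.01 in URE-AML. Of the PI3K genes of blood cells, *Pik3cg* fell by 0.95 ± 0.11 in URE-AML (log2 ± SE, adjusted p = 3.32e-05 in edgeR), and *Pik3r6* was at 10.6 CPM for Hox-WT, at 2.11 for Hox-URE and at 0 counts in URE-AML, which is at least 74.0-fold lower (adjusted p = 4.53e-06 in edgeR). *Pik3cd*, another of them, was lower in both URE lines, at 177 ± 26.4 CPM for Hox-WT, 88.3 ± 33.8 for Hox-URE and 103 ± 5.67 for URE-AML (SD, n = 3 each). *Pik3r5* did not pass the filter, and *Pik3r3* rose by 2.09 in URE-AML relative to Hox-WT (log2, adjusted p = 0.0323 in edgeR), with 32, 10 and 17 counts against 8, 8 and 0. *Irs1*, the insulin receptor substrate, was at 0 counts in Hox-WT and at least 15.1-fold higher in Hox-URE (adjusted p = 0.00011 in edgeR). *Akt1* and *Akt2* had log2 fold changes between -0.41 and 0.49 and were not called in any comparison. *Sgk1*, a kinase that acts on FOXO3 beside AKT, was at 0.704 ± 0.650 CPM for Hox-WT, 7.91 ± 5.53 for Hox-URE and 38.9 ± 17.9 for URE-AML (SD, n = 3 each) and was called in all 3 comparisons. *Phlpp1*, a phosphatase of AKT, was at least 35.3-fold higher in Hox-URE (adjusted p = 6.05e-07 in edgeR) and at least 89.7-fold higher in URE-AML (adjusted p = 6.77e-08 in edgeR) than in Hox-WT. *Pik3ip1*, an inhibitor of PI3K that FOXO proteins are known to induce, fell by 1.88 ± 0.22 in URE-AML relative to Hox-WT (log2 ± SE, adjusted p = 4.96e-05 in edgeR). Among 7 tested 14-3-3 genes, Hox-URE had 2 higher and 1 lower and URE-AML had 1 of each relative to Hox-WT, while URE-AML had 3 higher and 1 lower relative to Hox-URE. The shares higher and lower were 28.6% and 14.3%, 14.3% and 14.3%, and 42.9% and 14.3%, beside 21.3% and 15.9%, 23.0% and 20.2%, and 20.3% and 22.4% of all tested genes. *Sfn* fell by 3.33 ± 0.21 in URE-AML (log2 ± SE, adjusted p = 5.19e-07 in edgeR). *Ywhaz* rose by 0.97 ± 0.10 in URE-AML (log2 ± SE, adjusted p = 2.27e-05 in edgeR) and *Ywhae* fell by 0.61 in Hox-URE (log2, adjusted p = 0.00203 in edgeR), both relative to Hox-WT, while *Ywhaq* was not called in any comparison. The 14-3-3 counts in Hox-URE ran from 1 to 2 higher and from 0 to 2 lower when single libraries were left out.

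Genes known as targets of the 7 factors were counted in the same way. Of 57 tested MiT/TFE target genes, 12 were called higher and 4 lower (21.1% and 7.02%) in Hox-URE when set against Hox-WT, where 21.3% and 15.9% of all tested genes were, so the share higher was that of all genes. Their median log2 fold change was 0.22 against 0.00 for all tested genes. The 4 lower became 8 without Hox-WT library 3, 7 without Hox-URE library 3 and 8 with library size only. In URE-AML 10 were higher and 10 lower than in Hox-WT (17.5% each, and 23.0% and 20.2% of all tested genes), with a median of -0.03. Relative to Hox-URE 6 were higher and 13 lower (10.5% and 22.8%, and 20.3% and 22.4% of all), with a median of -0.20. *Sqstm1*, the cargo receptor p62, rose by 1.81 ± 0.24 in Hox-URE relative to Hox-WT (log2 ± SE, adjusted p = 0.000132 in edgeR), with 1227 CPM in Hox-URE library 1 and 577 and 681 in the others against 226 to 245 in Hox-WT, and had -0.41 ± 0.23 in URE-AML (log2 ± SE, adjusted p = 0.153 in edgeR). *Ctsd*, a lysosomal protease, was called higher in both URE lines, with log2 fold changes of 1.20 ± 0.42 (± SE, adjusted p = 0.0361 in edgeR) and 1.45 ± 0.43 (± SE, adjusted p = 0.0142 in edgeR), and its Hox-URE libraries ran from 320 to 1291 CPM and overlapped with those of Hox-WT, with library 1 the lowest of each Hox line. *Lamp1*, a lysosomal membrane protein, rose by 1.11 ± 0.27 in URE-AML relative to Hox-WT (log2 ± SE, adjusted p = 0.00506 in edgeR). *Sgsh*, a lysosomal sulfatase, rose by 4.73 ± 0.43 in Hox-URE and 2.92 ± 0.42 in URE-AML (log2 ± SE, adjusted p = 9.84e-06 and 0.000176 in edgeR). *Vps18*, of the complexes that tether membranes to the lysosome, fell by 1.31 ± 0.09 in Hox-URE and by 1.26 ± 0.09 in URE-AML (log2 ± SE, adjusted p = 1.11e-06 and 7.61e-07 in edgeR). *Psap*, the precursor of lysosomal activator proteins, rose by 1.83 ± 0.40 in URE-AML (log2 ± SE, adjusted p = 0.0027 in edgeR) and *Acp5*, an acid phosphatase, fell by 1.84 (log2, adjusted p = 0.00691 in edgeR), both relative to Hox-WT. *Wipi1*, of the early autophagosome, was called in URE-AML relative to Hox-URE alone (-1.09 ± 0.26, log2 ± SE, adjusted p = 0.00403 in edgeR). *Uvrag* was not called in any comparison, and *Gpnmb* did not pass the filter. The E-box CACGTG, read on both strands, is in 19 of the 53 RefSeq promoters of these targets (46 genes), 35.8%, and in 7.15% of all promoters. As the list holds genes already known as targets, this share describes the list and not these lines.

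Of 43 tested FOXO target genes, 15 were called higher and 5 lower (34.9% and 11.6%) in Hox-URE when set against Hox-WT, where 21.3% and 15.9% of all tested genes were, with a median log2 fold change of 0.38. In URE-AML 13 were higher and 9 lower than in Hox-WT (30.2% and 20.9%, and 23.0% and 20.2% of all tested genes), with a median of -0.10. Relative to Hox-URE 9 were higher and 14 lower (20.9% and 32.6%, and 20.3% and 22.4% of all), with a median of -0.38. Of the autophagy genes among them, *Gabarapl1*, which encodes a protein of the autophagosome membrane, rose by 1.15 ± 0.15 in Hox-URE (log2 ± SE, adjusted p = 0.000115 in edgeR) and fell by 0.76 ± 0.15 in URE-AML (log2 ± SE, adjusted p = 0.00135 in edgeR), both relative to Hox-WT. *Ulk1*, the kinase that starts autophagy, had 0.05 ± 0.17 in Hox-URE (log2 ± SE, adjusted p = 0.816 in edgeR) and fell by 0.83 ± 0.17 in URE-AML (log2 ± SE, adjusted p = 0.00187 in edgeR). *Bnip3*, a mitophagy receptor, fell by 1.00 ± 0.19 in Hox-URE (log2 ± SE, adjusted p = 0.00127 in edgeR) and rose by 0.67 ± 0.18 in URE-AML (log2 ± SE, adjusted p = 0.00904 in edgeR). *Sesn3*, an inhibitor of mTORC1, had 6.57 ± 0.653 CPM for Hox-WT, 14.3 ± 2.39 for Hox-URE and 4.50 ± 0.266 for URE-AML (SD, n = 3 each), and the growth arrest gene *Gadd45a* followed the same order, at 6.13 ± 0.773, 47.5 ± 7.59 and 4.38 ± 0.159 CPM (SD, n = 3 each). *Bcl2l11*, which encodes the death protein BIM, rose by 1.07 ± 0.17 in URE-AML relative to Hox-WT (log2 ± SE, adjusted p = 0.000344 in edgeR). *Rag2*, which FOXO1 activates in lymphocytes, was at 44.8 ± 9.62 CPM in Hox-WT (SD, n = 3) and at 0 counts in both URE lines, which makes Hox-URE at least 292-fold lower and URE-AML at least 314-fold lower. *Bnip3l*, the other mitophagy receptor, rose by 1.05 in URE-AML (log2, adjusted p = 0.000733 in edgeR), and so did the cell cycle inhibitor *Cdkn1b*, by 0.74 (log2, adjusted p = 0.00946 in edgeR). In Hox-URE *Fbxo32*, a ubiquitin ligase of muscle atrophy, rose by 4.36 ± 0.38 (log2 ± SE, adjusted p = 8.41e-06 in edgeR). *Sesn1*, *Ccng2* and *Txnip* rose there by 0.59, 0.78 and 0.99 (log2, adjusted p = 0.00642, 0.0197 and 0.00525 in edgeR) and were not called in URE-AML, all relative to Hox-WT. *Klf2* was called higher in both URE lines, by 2.41 and 2.44 (log2, adjusted p = 0.00972 and 0.0082 in edgeR). Its counts were low, at 4, 13 and 4 for Hox-WT, 54, 37 and 10 for Hox-URE, and 40, 38 and 17 for URE-AML. *Bcl6* rose by 4.10 in URE-AML (log2, adjusted p = 1.49e-05 in edgeR), and *Sod2* was not called in any comparison. The FOXO core GTAAACA, read on both strands, is in 5 of the 46 promoters of these targets (40 genes), 10.9%, and in 3.65% of all promoters, which again describes the list.

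**Figure D4:**
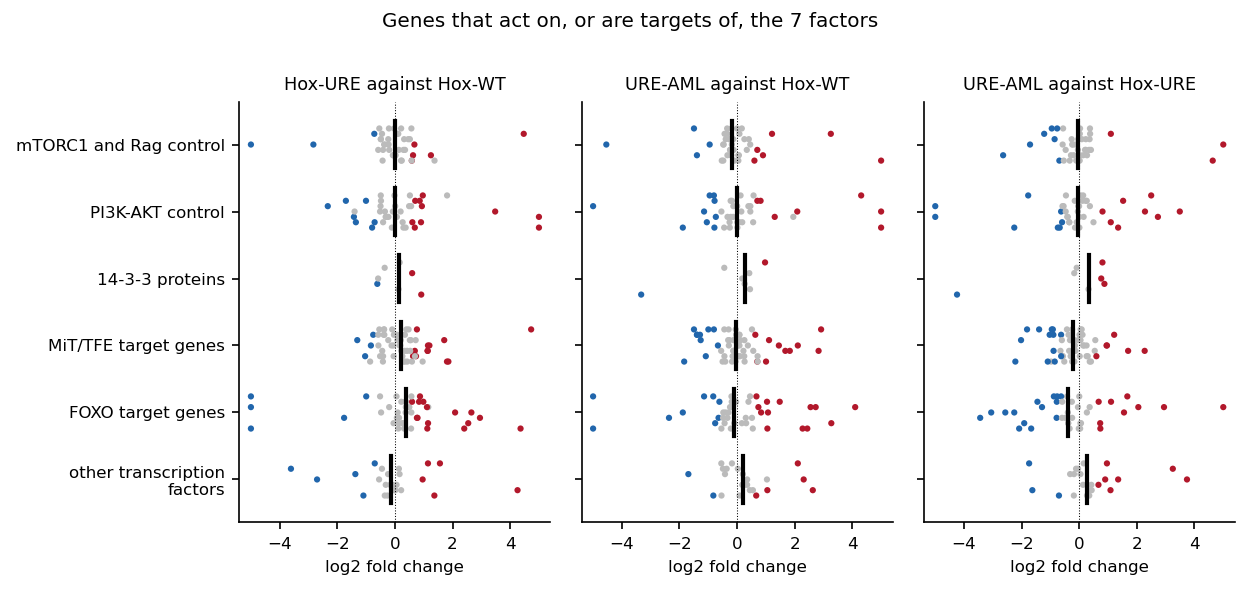
Log2 fold change of each tested gene in 6 lists of regulators and targets, red where called higher, blue where called lower, grey where not called, with black bars at the medians and values beyond 5 drawn at 5. The medians of both target lists are right of 0 in Hox-URE relative to Hox-WT, at 0.22 and 0.38, and left of it in URE-AML relative to Hox-URE, at -0.20 and -0.38.

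Other transcription factors of autophagy genes made up the last list, with 24 tested genes. Of these, Hox-URE had 5 called higher and 5 lower, and URE-AML 5 and 2, both relative to Hox-WT, while URE-AML had 7 higher and 3 lower relative to Hox-URE. The shares called higher and lower were 20.8% and 20.8%, 20.8% and 8.33%, and 29.2% and 12.5%, beside 21.3% and 15.9%, 23.0% and 20.2%, and 20.3% and 22.4% of all tested genes. The medians were -0.13, 0.20 and 0.27. *Zkscan3*, a repressor that opposes TFEB, was called in 1 of the 3 comparisons, URE-AML relative to Hox-URE, at 0.67 ± 0.17 (log2 ± SE, adjusted p = 0.00679 in edgeR). *Foxk1*, a forkhead repressor at FOXO sites, had a log2 fold change of -0.03 in Hox-URE and rose by 1.05 ± 0.08 in URE-AML (log2 ± SE, adjusted p = 2.64e-06 in edgeR). *Foxk2*, its close relative, was not called in any comparison. *Atf5*, a factor of the stress response, had 11.9 ± 0.806 CPM for Hox-WT, 227 ± 102 for Hox-URE and 73.5 ± 10.7 for URE-AML (SD, n = 3 each), with 344 CPM in Hox-URE library 1 and 174 and 163 in the others. *Foxp1* fell in both URE lines, by 1.37 and 1.69 (log2, adjusted p = 1.41e-06 and 1.9e-07 in edgeR). *Rara* and *Gata1* were called lower in Hox-URE (adjusted p = 0.00374 and 0.000156 in edgeR), and the stress factor *Ddit3* was called higher there by 1.56 (log2, adjusted p = 0.00671 in edgeR), while none of the 3 was called in URE-AML, all relative to Hox-WT. The symbol *Ddit3* also stood on another row, which was at or under 3 counts in each line. Each list shares its libraries with the members, and what these counts owe to the levels of the 7 factors was not tested.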

How the data were processed

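RNA from 3 cell lines was sequenced in 3 libraries per line, from stranded poly-A libraries. The deposited values are estimated counts, 1 per gene and library, which the authors made with salmon and tximport, on GRCm38 per the submitters' processing notes, and no column was left unused. They are whole numbers. The version of salmon was not given in the sources used here. From that table, 13082 of 54347 genes passed edgeR's filter on low counts (minimum count 10), which removed 0.0499% of the counts, and 31051 genes were 0 throughout. Totals were 20331064 to 28588718 counts per library, with a common biological coefficient of variation of 0.173. One quasi-likelihood fit in edgeR 4.0.16 (R 4.3.3, limma 3.58.1) over the 9 libraries, with TMM factors of 0.938 to 1.04 and no block, gave 3 comparisons, adjusted by Benjamini-Hochberg over all tested genes. Calls needed both an adjusted p under 0.05 and more than a 1.5-fold change. Log2 CPM used a prior count of 2. The steps were tested on simulated data. Figures were drawn with matplotlib 3.10.9 in Python 3.11.15.

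The members and the lists were chosen with earlier results of these data known. Genes named were the members, *Foxo6*, *Spi1*, *Xist* and *Hoxb8*, from each list its marked regulators and, per comparison, the called genes with the largest and the smallest log2 fold change, the 3 genes most like each member, and markers beside a result. *Tes*, *Mdfic*, *Il2rg*, *Ppp3cb*, *Ppp3r1* and *Pik3cd* were named after their values were seen. Where a line had 3 counts or fewer in each library, the fold change was bounded with a floor of 3 counts per library. Coordinates and exon lengths came from GENCODE M21 on GRCm38, which matched 54094 of the gene IDs. Promoters came from RefSeq on GRCm38.p6, with none used for *Foxo4*. Same-numbered libraries of different lines had deviations correlated at 0.0100 to 0.271, over 0.1 in 2 of 9 pairs. Both were in Hox-URE relative to Hox-WT, with values of 0.271, 0.0995 and 0.174, and since not every pair passed 0.1, numbers were not taken to pair the libraries. Replicates differed by more than counting noise, most of all library 1 of Hox-URE. Alternatives were other scaling factors, other filters, a fit of 6 libraries, a replicate block, DESeq2 1.42.0, other thresholds and each library left out. Some genes of the lists are counted but not reported here by name.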

Additional observations from a re-analysis of the deposited data

How the results depend on the processing

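Of 396 alternative values for the members' log2 fold changes, 372 kept direction and side of the threshold, 13 lost a call, 5 gained one and 6 changed sign. *Mitf* in Hox-URE relative to Hox-WT lost its call with upper-quartile factors (0.97), library size only (0.89), no filter (0.99), 6 libraries (0.99), the replicate block (1.00) and a test against a 1.5-fold change (0.99), and leaving out 1 library gave 0.74 to 1.30. It lost the call there without Hox-WT 1 or 2, Hox-URE 1 or 2, or URE-AML 2 or 3. *Foxo4* in the same comparison, which was not called, changed sign with upper-quartile factors (-0.024), library size only (-0.10) and 6 libraries (-0.0029), and ran from -0.10 to 0.13 with 1 library left out. *Tfe3* in URE-AML relative to Hox-WT gained a call with upper-quartile factors (-0.60), the replicate block (-0.59) and no fold threshold (-0.57), and ran from -0.76 to -0.45 with 1 library left out. The members called lower there were then 2 under these 3 settings, and 1 to 2 with 1 library left out. *Foxo1* in URE-AML relative to Hox-URE lost its call in a test against a 1.5-fold change (-0.77), which left 1 member lower. With at least 10 counts required in every library, *Tfec* was not tested and 0 members were lower in Hox-URE. The genes called over the 6 lists went from 72 to 114 in Hox-URE and from 72 to 116 in URE-AML, both relative to Hox-WT, with no fold threshold, and to 44 in Hox-URE in the test against a 1.5-fold change. With the replicate block these counts were 74 and 73, and 80 in place of 77 for URE-AML relative to Hox-URE, and the block changed no member's call beside those of *Mitf* and *Tfe3*. The numbers of the libraries were not shown to pair them.

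With the median protein-coding transcript as length, the shares, in the order Hox-WT, Hox-URE, URE-AML, were 32.6%, 71.6% and 42.6% for *Tfeb*, 28.4%, 25.9% and 7.07% for *Tfe3*, 0.564%, 1.82% and 1.81% for *Foxo1*, 85.1%, 85.7% and 41.3% for *Foxo3*, and 14.4%, 12.5% and 56.9% for *Foxo4*. *Mitf* then had 2.42% in Hox-URE and 1.20% in URE-AML, and *Tfec* 49.1% in URE-AML. With the longest transcript *Mitf* had 0.802%, 2.56% and 1.06%, and in URE-AML *Tfeb* had 20.3% and *Tfec* 65.7%. With Spearman's correlation, 0 of the 3 most similar genes recurred for *Tfeb*, *Tfec*, *Foxo1*, *Foxo3* and *Foxo4*, and 1 for *Tfe3*. The 3 libraries per line and the single line per genotype limit what each comparison can show, and counts of a gene do not tell its transcripts apart. The causes of these changes were not tested.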

Other observations

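The promoter table gave further values on the target lists. The longer CLEAR element, a 10-base sequence that contains the E-box CACGTG, was in 2 of the 53 promoters of MiT/TFE target genes, 3.77%, and in 0.326% of all promoters. This too describes a list of known targets and not these lines. Over the 3 lines, the summed CPM of 6 megakaryocyte markers ran from 4.69 to 7.04 for Hox-WT, from 16.0 to 46.4 for Hox-URE and from 1.13 to 3.69 for URE-AML, with *Itga2b* at 28.4 CPM making up most of the Hox-URE sum. The 8 erythroid markers summed to 293 to 308 CPM for Hox-WT, 170 to 232 for Hox-URE and 432 to 480 for URE-AML, nearly all of it *Tfrc*, which encodes the transferrin receptor of many dividing cells. Of the 6 tested, relative to Hox-WT, Hox-URE had 0 called higher and 3 lower (21.3% and 15.9% of all tested genes) and URE-AML had 2 higher and 2 lower (23.0% and 20.2% of all). URE-AML had 3 higher and 0 lower relative to Hox-URE (20.3% and 22.4% of all).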
